A study of Mus musculus with 2 samples.

Results

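The late-registered mouse microRNA genes were taken as all gene rows whose symbol runs from Mir1892 to Mir1971 or from Mir3057 to Mir3113, with any suffix, leaving out Mir1912, Mir3072 and Mir3074-1. The rule used names only and gave 102 of 1973 gene rows, 54 in the lower range and 48 in the upper range. These genes are called members here. The libraries held small RNA under 30 nt from B6NCrl mouse forebrain at embryonic day 15.5, without treatment or genetic alteration. Replicate 1 pooled 78 embryos of both sexes and replicate 2 pooled 62, and they form 1 group, so no condition is compared. Because each library is a whole-tissue pool, fewer cells of a type and less RNA per cell cannot be told apart.

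MicroRNAs (miRNAs) are short RNAs cut from a hairpin within a longer transcript, and each arm of the hairpin (5p or 3p) can give a mature miRNA. The mature strand guides an Argonaute protein to messenger RNAs, mostly through its seed, bases 2 to 8 from the 5′ end. Many miRNA genes lie in introns and are made from the transcript of the host gene. In a mirtron the hairpin is released by splicing, so that a hairpin end coincides with an intron end. Symbols are numbered in order of registration, so high numbers mark genes described after the abundant, conserved families such as let-7.

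The mature sequences below belong to the members of highest level, Mir3099, the row listed as Mir3071, and Mir3102. They come from RefSeq (GRCm38.p6, the build also called mm10), run 5′ to 3′, and carry the seed in capitals. RefSeq mature sequences were found for 89 of the 102 members. The sequences of Mir136 are added because that gene faces Mir3071 on the other strand.
mmu-miR-3099-3p: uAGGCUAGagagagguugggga
mmu-miR-3099-5p: cCAGCUUCcuuccagcccuug
mmu-miR-3071-3p: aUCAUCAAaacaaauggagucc
mmu-miR-136-5p: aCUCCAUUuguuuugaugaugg
mmu-miR-3071-5p: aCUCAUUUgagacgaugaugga
mmu-miR-136-3p: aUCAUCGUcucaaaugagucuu
mmu-miR-3102-5p: gUGAGUGGccaggguggggcug
mmu-miR-3102-5p.2-5p: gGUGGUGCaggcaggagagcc
mmu-miR-3102-3p.2-3p: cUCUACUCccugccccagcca
mmu-miR-3102-3p: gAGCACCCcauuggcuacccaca
The deposited counts are per gene and do not separate the arms, so no level can be given to a single one of these sequences.

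The libraries held 4464927 and 4753555 counts on the strand of the gene over all gene rows. Levels are in CPM, the count divided by that total and scaled to a sum of 1000000, and 3 counts correspond to 0.672 CPM in replicate 1 and 0.631 CPM in replicate 2. Reads placed at more than 1 locus made up 44.6% and 42.4% of all reads and stayed outside the gene rows. Of the neuronal and forebrain markers, Mir137 stood at 9747 and 8437 CPM, while the near-identical Mir124a genes reached at most 3.58 CPM in either library. Markers of other cell types had counts too, with endothelial Mir126a at 15856 and 16377 CPM. Of the choroid plexus markers, Mir204 stood at 1822 and 1139 CPM and Mir211 at 7.39 and 3.16 CPM. Of the 4 muscle markers, Mir1a-1 was at 0 in both libraries, and Mir206, Mir208a and Mir208b lay between 4.84 and 41.2 CPM. The erythroid, liver and immune markers lay between 39.0 and 99.1 CPM. The part of these cell types in the levels of the members was not tested.

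The members held a small part of the counts in the gene rows, which leave out reads placed at more than 1 locus. Their summed level was 1009 CPM in replicate 1 and 1177 CPM in replicate 2 (1093 ± 119, SD, n = 2), or 0.101% and 0.118% of the gene counts. Of the 102 members, 30 (29.4%) were detected, that is, had at least 10 counts in each library. Another 40 had some counts below that minimum, and 32 (31.4%) were at 0 in both libraries. Over all 1973 gene rows, 370 (18.8%) were detected and 63.3% were at 0. Those rows include 843 whose symbol is neither Mir plus a number nor let-7, of which only 6 (0.712%) were detected. They also include 79 rows without a matched symbol, of which 0 were detected. Both kinds lower the share over all rows, so it does not show that members were detected more often than other numbered miRNA genes. Detected members were low, with a median of 9.53 CPM against 111 CPM for all detected rows. A count of 0 allows a level of up to 0.672 and 0.631 CPM, for counting error only.

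Genes of the upper range were seen in these libraries more often than genes of the lower range. In the lower range, Mir1892 to Mir1971, 8 of 54 genes (14.8%) were detected and 28 were at 0 in both libraries. In the upper range, Mir3057 to Mir3113, 22 of 48 genes (45.8%) were detected and only 4 were at 0, which are Mir3073a, Mir3077, Mir3090 and Mir3092. Earlier genes, up to Mir1891 and with let-7, were detected in 297 of 494 rows (60.1%), with a median of 211 CPM among the detected ones. Above Mir3113, 31 of 445 rows (6.97%) were detected. These shares are a description of 1 tissue and age, and no test was made between the ranges.

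**Figure D1:**
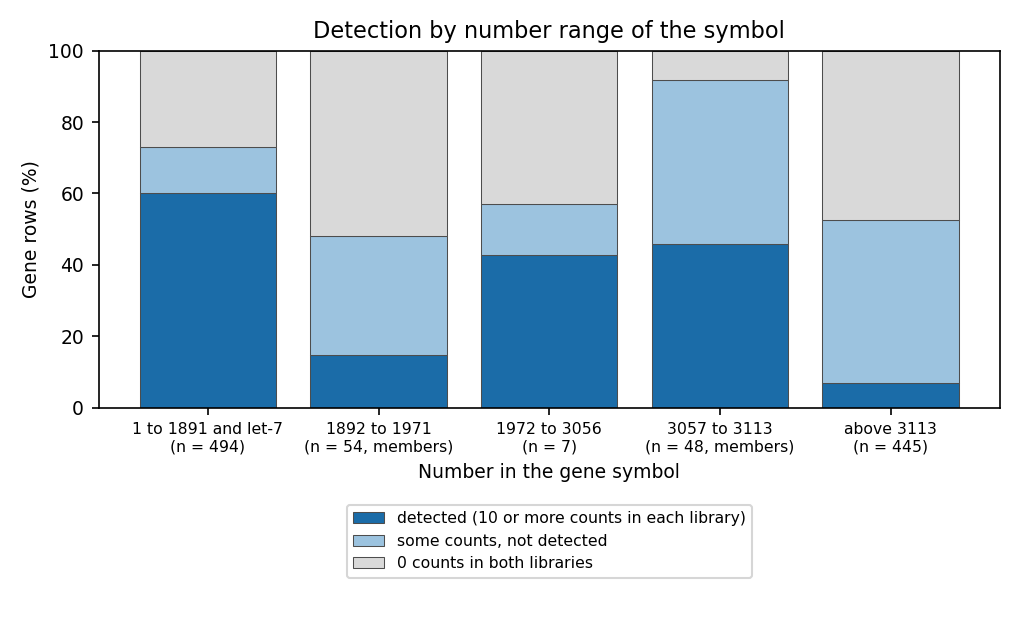
Share of gene rows (%, vertical axis) that were detected, had some counts or were at 0 in both libraries, for 5 ranges of the number in the gene symbol (horizontal axis, number of rows in brackets). The upper range of members has 45.8% detected against 14.8% in the lower range.

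Mir3099 and the row listed as Mir3071 held most of the member counts, 64.9% in replicate 1 and 66.8% in replicate 2. Mir3099 lies at chr7:6803587-6803670 on the plus strand, in an intron of 169340 nt of Usp29. Usp29, a gene of the deubiquitinase family, belongs to the imprinted Peg3 domain, where genes are read from 1 parental copy. Its row held 1491 and 1432 counts, or 334 and 301 CPM (318 ± 23.1, SD, n = 2), which placed it 132nd among all rows. Both libraries gave nearly the same level, with replicate 2 slightly lower.

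The row listed as Mir3071 (ENSMUSG00000070129) held 1433 and 2308 counts, or 321 and 486 CPM (403 ± 116, SD, n = 2), the 123rd highest level. Mir3071 lies at chr12:109595318-109595397 on the minus strand, in a coding exon of Rtl1, a retrotransposon-derived gene of the imprinted Dlk1-Dio3 region. Mir136 is read from the plus strand there, and its 62-nt hairpin lies whole within the 80-nt hairpin of Mir3071. The sequences above show the overlap, since miR-3071-3p faces miR-136-5p over 20 bases and miR-3071-5p faces miR-136-3p over 19 bases. Mir136 had no row of its own, and the row of Mir3071 held 0 counts on the opposite strand in both libraries.

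The strand on which that row was counted is stated in no source used here. The identifier in the files carries version 1, whereas the later annotation used here for names carries version 2 under the symbol Mir3071. Its identifier number is lower than those of all 47 other members of the upper range. The row can therefore not be assigned to Mir3071 or to Mir136, and its values are given as those of the row. Without it, the summed level of the members was 688 and 692 CPM, so the sum differed little between the libraries once that row was left out. The other member with a changed version was Mir1956, at 0 in both libraries.

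The detected members below this pair spread from 2.61 to 41.9 CPM. Mir3102 led them, with 175 and 212 counts (39.2 and 44.6 CPM). It occupies the whole of a 104-nt intron of Arhgef17, at chr7:100882306-100882409 on the minus strand. It is also the member with 4 listed mature sequences, printed above. Mir3093, in an intron of the noncoding gene Gm3764, had 128 and 150 counts, and Mir3061, in an untranslated region of the phosphatase subunit gene Ppp2ca, had 126 and 150. These 2 genes, at 30.1 ± 2.04 and 29.9 ± 2.36 CPM (SD, n = 2), did not differ beyond their spread.

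The next members in order of level lay mostly in introns of genes on the same strand. Mir3080, in an intron of the transcriptional coregulator gene Tcf20, had 123 and 129 counts. Mir1955, in the chromatin gene Phf21a, had 105 and 118 counts and was the highest member of the lower range. Mir3059, in a 182041-nt intron of the glycosyltransferase gene Mgat4c, had 88 and 120 counts. All 3 stood between 22.5 and 27.3 CPM on average.

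Mir1968, in an intron of Grtp1, had 74 and 121 counts, or 16.6 and 25.5 CPM. Mir3066, in an intron of Nol10, had 79 and 76 counts. Mir3078, in an exon of the noncoding host Mir124a-1hg, had 61 and 68 counts. The last of these hosts is the precursor transcript of the neuronal miR-124. Mir124a-1, whose nearer end lies 444 positions from that of Mir3078, had 9 and 17 counts. The Mir124a genes are near-identical, and reads placed at several loci stayed outside the gene rows. The counts of Mir124a-1 therefore do not give the level of miR-124 and cannot be compared with those of Mir3078. Mir1930 lies in an intron of the ubiquitin-conjugating enzyme gene Ube2g2 and also in an exon of a noncoding transcript of that gene. It had 55 and 60 counts, and closed the 12 members of highest level.

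A further 18 members were detected at 12.4 CPM or less. Among them were Mir3064 in Ddx5, a gene for an RNA helicase of the miRNA-processing complex, with 55 and 59 counts, and Mir3105 in Shank2, a postsynaptic scaffold gene, with 52 and 55. Mir3067, in an intron of Smoc1, was just inside the detection minimum, with 11 and 24 counts. Mir1964, in an intron of Zfp84, was just outside it, with 11 and 8 counts.

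**Figure D2:**
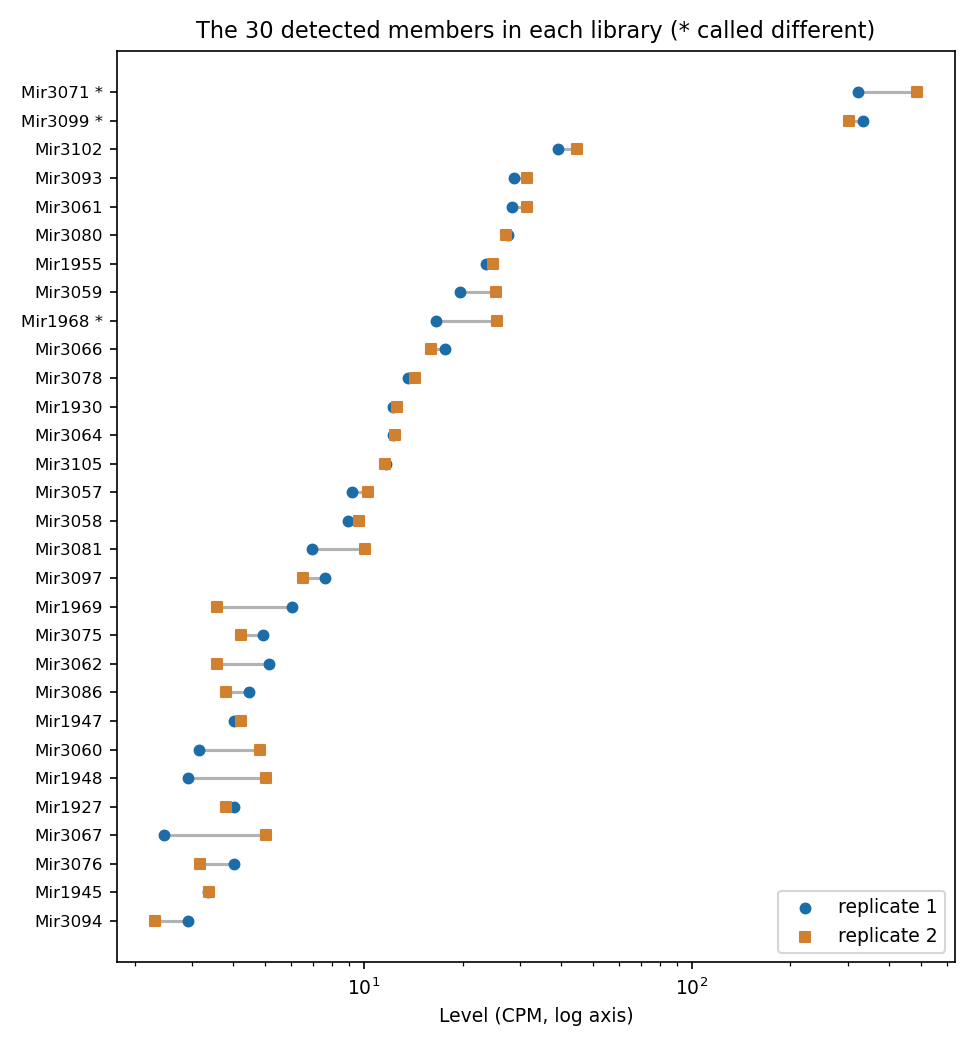
Level of each of the 30 detected members (horizontal axis, CPM, log axis) in replicate 1 (circles) and replicate 2 (squares), ordered by mean. The row listed as Mir3071 and Mir3099 stand above 300 CPM and the other 28 members below 45 CPM, and an asterisk marks members called different between the libraries.

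The row listed as Mir3071, Mir1968, Mir3106 and Mir1934 were higher in replicate 2, and Mir3099 was lower. Genes whose libraries summed to 10 counts or more were compared with an exact binomial test, two-sided, against the share each library had of all gene counts, adjusted over all 457 genes tested (Benjamini-Hochberg). Over all genes tested, 36.3% were called at an adjusted p of 0.05. Among the members, 5 of 38 tested were called (13.2%). Among genes with at least 100 counts in total, where counting error is smaller, 53% of 298 were called, against 3 of 14 members. Calls depend on the count, and detected members had a median of 9.53 CPM against 111 CPM for all detected rows. The shares are not matched for level, so they do not show that members varied less between the libraries. The test compares these 2 libraries and covers counting error only, since 1 group gives no contrast.

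The row listed as Mir3071 had the largest count behind its difference. Its level was higher in replicate 2 by 0.60 on the log2 scale (95% interval 0.50 to 0.69), with an adjusted p of 1.48e-34 in the exact binomial test. Mir1968 was higher in replicate 2 by 0.62 (0.19 to 1.06, adjusted p = 0.0127, exact binomial test). Mir3099 was lower in the second library, at a log2 ratio of -0.15 (-0.25 to -0.04, adjusted p = 0.0169, exact binomial test). That last call was lost when Mir99a, the most abundant gene, was left out of the totals (adjusted p = 0.187, exact binomial test). TMM scaling, DESeq2 size factors and counts of either strand gave adjusted p from 0.00147 to 0.0190 (exact binomial test). At a threshold of 0.01, only the row listed as Mir3071 was called.

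The other 2 called members, named after their values were seen, were too low to be detected. Mir3106, in an intron of Csmd1, had 7 and 22 counts, a log2 ratio of 1.49 (adjusted p = 0.0265, exact binomial test). Mir1934, outside annotated genes, had 5 and 17 counts, a log2 ratio of 1.58 (adjusted p = 0.0497, exact binomial test). The call of Mir1934 was lost with TMM scaling, with DESeq2 size factors, with counts of either strand and with no minimum count for the test. For 33 of the 38 tested members no difference between the pools was detectable at this depth, which does not show equal levels. Nothing in the labels says whether the pools shared a litter or a preparation day, so the spread may be partly technical.

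**Figure D3:**
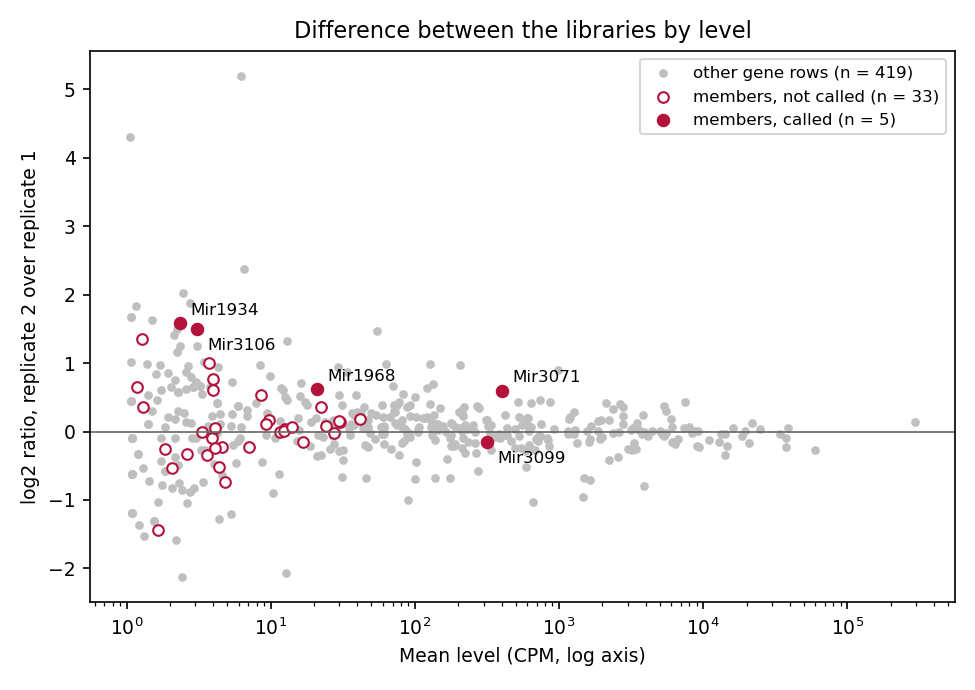
log2 ratio of replicate 2 over replicate 1 (vertical axis) against mean level (horizontal axis, CPM, log axis) for the 457 genes tested. Members are drawn in red, filled for the 5 called, of which 4 lie above 0 and Mir3099 below it.

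Most members are embedded in genes. By the later annotation, 70 lay on the strand of a protein-coding host and 26 of these were detected. Both numbers count the row listed as Mir3071 at the place of Mir3071, although that row cannot be assigned to Mir3071 or to Mir136. Another 9 lay in a noncoding host, of which 2 were detected, and 16 lay outside genes, of which 2, Mir1969 and Mir1945, were detected. The 7 members found only on the opposite strand of a gene included no detected one, with at most 3 counts in a library (Mir3079, opposite Spatc1, had 1 and 3). These counts describe place and detection side by side, and whether host expression moved with them was not measured.

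A set of members sat at the very end of a host intron. In 12 members the hairpin ended within 5 nt of the intron's 3′ end, the splice acceptor, and 11 of them were from the upper range. Within the upper range, 6 of these 11 were detected, and so were 12 of the 23 other members in a same-strand intron. The remaining one, Mir1963, was at 0 in both libraries. Introns nearly always end in AG, and 7 of the 11 sequences listed as 3p in this set ended on the last base of the intron, in AG. That ending follows from the place by which the set was chosen. The 3p sequences of the 6 detected genes are shown with their last 2 bases in capitals.
mmu-miR-3102-3p: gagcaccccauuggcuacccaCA
mmu-miR-3064-3p: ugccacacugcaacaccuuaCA
mmu-miR-3097-3p: cucagaccuuucuaccugucAG
mmu-miR-3062-3p: cggggacacacuuucucCU
mmu-miR-3076-3p: cgcacucuggucuucccuugcAG
mmu-miR-3094-3p: ccuuuaaauuguguccucaAG
The sequences of Mir3097, Mir3076 and Mir3094 ended exactly at the acceptor, and those of Mir3102 and Mir3064 ended 1 base before it. The 3p sequence of Mir3062 ended 21 bases before the acceptor.

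These 6 detected genes stood between 2.61 and 41.9 CPM on average. Mir3102 was described above, and Mir3064 had 12.3 and 12.4 CPM. Mir3097, in an intron of the G-protein signalling regulator gene Rgs12, had 34 and 31 counts. Mir3062 spans a 97-nt intron of Pfas, a purine synthesis gene, and had 23 and 17 counts. Mir3076, in the transketolase gene Tkt, had 18 and 15 counts, and Mir3094, in Nfx1, had 13 and 11. Among the 6 members of this kind that were not detected, Mir3104, in the neuronal kinase gene Brsk2, had the highest counts, 6 and 3.

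**Figure D4:**
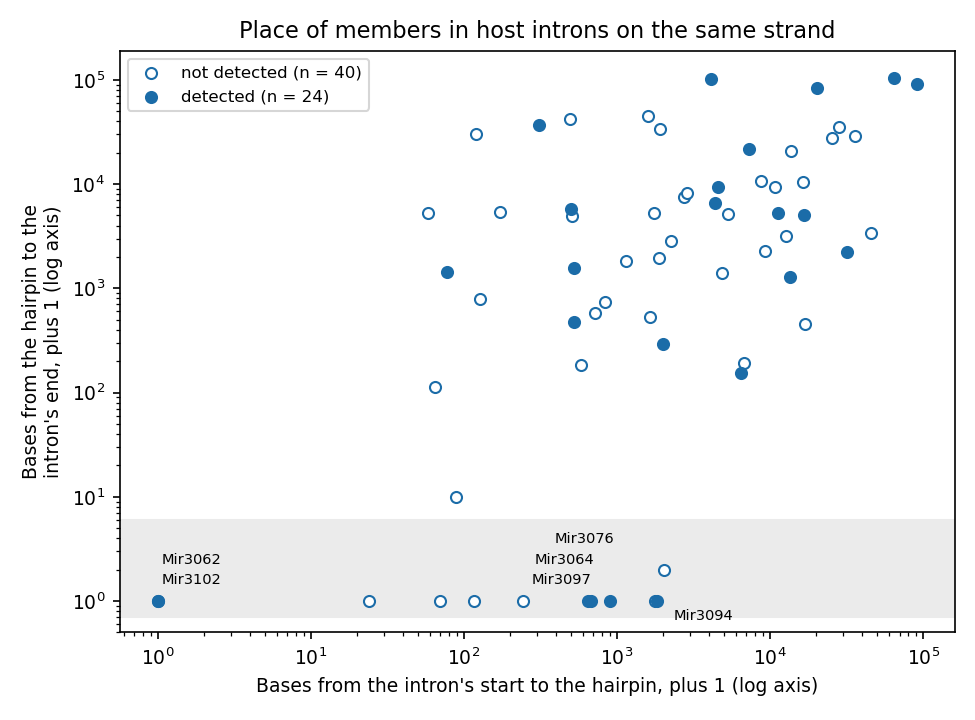
Distance from the start of the host intron to the hairpin (horizontal axis) and from the hairpin to the end of the intron (vertical axis), in bases plus 1 on log axes, for the 64 members in an intron on the same strand. Distances below 0 are drawn at 0, filled points are detected members, and the grey band holds the 12 hairpins within 5 bases of the intron's end.

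In the imprinted Dlk1-Dio3 region, Mir3070a and Mir3070b were far below most of their neighbours. This region carries one of the largest miRNA clusters of the mouse, read from the maternal copy. Mir3070a had 11 and 4 counts and Mir3070b 3 and 0, at 560 bases from each other. The pair shares the whole miR-3070-5p sequence, so reads of that arm have more than 1 locus. Genes on the same strand within 10 kb of them ranged up to Mir127 with 24562 and 25062 counts, with Mir431 at 6948 and 7401, and down to Mir432 at 0 in both libraries. Mir1906-1, in an exon of the noncoding RNA Meg3, was at 0 in both libraries, as was Mir1906-2 on chromosome X, which has the same mature sequence. Reads of that sequence have more than 1 locus as well, so these values of 0 do not show its absence.

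Beside Mir3093, 340 bases away on the same strand, lies Mir9-1, a gene of the neural progenitor miRNA miR-9, which had no row here. A gene row on the opposite strand, Gm25641, covers the whole hairpin of Mir9-1 and was looked at after its values were seen. It held 1 count in each library on its own strand and 271 and 330 on the strand of Mir9-1 and Mir3093. Mir3093, with 128 and 150 counts, held none on its opposite strand. Mir9-2 and Mir9-3 are further genes of miR-9, at 3.58 and 2.95 CPM and at 748 and 718 CPM. Reads placed at more than 1 locus stayed outside the gene rows. The counts at Mir9-1 therefore do not give the level of miR-9 and cannot be compared with those of Mir3093.

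Counts on the strand opposite to a member were rare. Only 6 members had any, and of these only Mir3086, in an intron of Hspa12a, reached 20 counts in total. In replicate 1, 3 of its 23 counts (13.0%, 95% Clopper-Pearson interval 2.78% to 33.6%) were opposite. In replicate 2 it was 1 of 19 (5.26%, 0.133% to 26.03%). The intervals overlap.

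Several members share a seed with a better known miRNA. The listed miR-1961 starts with the let-7 seed and has the same first 13 bases as let-7g and let-7i, but is 17 nt long. The listed miR-1928, also 17 nt, has the same first 10 bases as miR-221-3p, which represses the cell-cycle inhibitor gene Cdkn1b. In the sequences below the seed is in capitals.
mmu-miR-1961: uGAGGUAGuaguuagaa
mmu-let-7g-5p: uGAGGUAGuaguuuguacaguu
mmu-miR-1928: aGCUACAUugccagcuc
mmu-miR-221-3p: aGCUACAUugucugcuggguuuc
Mir1961 and Mir1928 were at 0 in both libraries, while Mirlet7g stood at 65585 and 54323 CPM and Mir221 at 192 and 165 CPM.

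The other members that share a seed with a detected gene had counts. The 5p sequence of Mir3064 and the 3p sequence of Mir3085 start with the same 8 bases, and Mir3085 had 9 and 8 counts. Mir1947, in an intron of Lmln, had 18 and 20 counts, and its 3p sequence has the first 8 bases of miR-674-5p. Mir674 had 714 and 662 CPM. The miR-3102-5p printed above has the first 8 bases of miR-702-5p, and Mir702 had 44.8 and 54.1 CPM. Mir1943, in Tmem184b, had 4 and 7 counts and shares only the seed of its 5p sequence with miR-149-3p. Mir149 had 19336 and 19489 CPM.
mmu-miR-3064-5p: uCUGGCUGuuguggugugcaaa
mmu-miR-3085-3p: uCUGGCUGcuauggcccccuc

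Folding energy did not separate detected from undetected members in the same direction in both ranges. The median predicted folding energy was -0.449 kcal/mol per nucleotide in detected members and -0.443 in the others. In the lower range it was -0.466 against -0.428, in the upper range -0.445 against -0.462, and members at 0 in both libraries stood at -0.409. The median GC content was 53.4% in detected members and 52.9% in the others. Genes up to Mir1891 had a median GC content of 46.9%. Of the 142 listed mature sequences, 35.2% began with U, the base that Argonaute favours, with 31.4% in detected members and 37.4% in the others.

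In the lower range, 3 of 10 members with both arms listed were detected. So were 3 of 34 with 1 listed arm and 2 of 10 with none. At 0 in both libraries were 0 of 10 with both arms, 21 of 34 with 1 arm and 7 of 10 with none. In the upper range, 41 of 48 members had both arms listed, and 19 of these 41 were detected, against 2 of 4 with 1 listed arm and 1 of 3 with none. In that range 4 of the 41 were at 0 in both libraries, and none of the 7 others. The listing is that of RefSeq and is not a measurement of these samples. Most members given here with none had no matching RefSeq gene, among them all 3 of the upper range, Mir3078, Mir3079 and Mir3106. For these, none means that no entry was found, not that RefSeq lists no arm.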

How the data were processed

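Small RNA of mouse forebrain was measured in 2 libraries, and the deposited files hold whole-number counts per miRNA gene made by the authors, without normalization. Per the deposited README text, reads were placed on mm10 with GENCODE release M4; no source used here names the aligner or counter. The column with the larger total of the 2 strand columns was taken as the strand of the gene. Rows naming no gene (multi-mapping, unmapped at 14.3% and 18.2%, and no feature at 2.42% and 2.53% of reads) stayed out of totals and tests.

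Symbols and places came from GENCODE M21 on the same build, by identifier without its version (1894 of 1973 rows matched, 79 did not). Another 12 symbols of the number ranges without a row were not analysed here. CPM, exact binomial tests (scipy 1.17.1) and Benjamini-Hochberg adjustment were computed from the counts, with 0.5 counts added for log2 ratios. Hairpins were folded with RNAfold 2.7.2. The test was tried on simulated data. Alternatives used TMM (edgeR 4.0.16) and DESeq2 1.42.0 size factors, other count minimums and totals, and leaving out each replicate.

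The members and lists were chosen with earlier results of these data known. Named by rule were the 12 members of highest mean CPM, called members with at least 5 CPM, members overlapping another miRNA row, those with the highest opposite-strand share, Dlk1-Dio3 members, those beside the detection minimum and up to 6 sharing a seed with a detected gene. Other members were named after their values were seen, and those at the intron ends as a set.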

Additional observations from a re-analysis of the deposited data

How the results depend on the processing

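Detection depended on the minimum: 19 members had at least 20 counts in each library and 55 had at least 1, against 30 in the report and 32 in either library alone. The summed level ranged from 1009 to 1177 CPM when either library was left out. It was 1558 CPM with Mir99a left out of the totals, which lowers each total, and 689.9 CPM without the row listed as Mir3071, an alternative chosen after seeing the data. The median member level was 0.224 to 0.421 CPM with a library left out and 0.540 CPM with the total without Mir99a. Of the 5 called members, 3 were called with a minimum of 100 counts for the test (14 members tested) and 1, the row listed as Mir3071, at a threshold of 0.01. TMM scaling, DESeq2 size factors, the column for either strand and no minimum count each left 4, without Mir1934. The total without Mir99a left 4, without Mir3099. Among all called genes, 53.0% were higher in replicate 2, against 42.9% with TMM, 47.9% with DESeq2 size factors and 69.1% without Mir99a in the totals. The median log2 ratio of detected genes was then 0.11, against 0.05 in the report. Members with opposite-strand counts numbered 0 with a minimum of 100 counts over both strands, and 0 to 1 with a library left out. The cause was not tested where the alternative does not itself set the change. No paired analysis was possible because the libraries form 1 group. Depth limits single members: 3 counts are 0.672 and 0.631 CPM.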
